A study of Sus scrofa with 16 samples.

Results

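Chemokine genes and CSF3, the gene of granulocyte colony-stimulating factor, were measured in the left ventricle of pigs 3 weeks after a myocardial infarction (MI) or a sham operation (Sham). The genes asked for were CCL2, CCL3L1, CCL4, CCL5, CXCL2, CXCL9, CXCL10, CXCL12 and CSF3, and every probe set annotated with a single symbol among them was taken. This gave 9 probe sets for 8 of the 9 genes, out of 23999 probe sets tested. CXCL12 had 2 probe sets, and CXCL10 was not measured here because 0 probe sets carried that symbol alone.

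The MI group held 8 pigs and the Sham group 8 pigs, all of a Yorkshire x Landrace cross and 2 to 3 months old, with 4 females and 4 neutered males in each group by the labels. Each animal gave 1 porcine Affymetrix array of total RNA from frozen, crushed left ventricle. The labels do not state how the infarction was made, which part of the ventricle was sampled, or how far it lay from the infarct. Animals are named by group and number.

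Chemokines are small secreted proteins that bind G protein-coupled receptors on leukocytes and guide their migration along gradients. The CC family acts mainly on monocytes, macrophages and lymphocytes, and the CXC family on neutrophils, T cells or progenitor cells according to the ligand. After an infarction, chemokines are known for recruiting neutrophils first and then monocytes and lymphocytes into the injured muscle. Granulocyte colony-stimulating factor drives the production of neutrophils in bone marrow and their release into the blood. All statements of this paragraph are background.

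Values are log2 signals as deposited, which ran from 2.87 to 14.9 with the same median of 6.24 on all 16 arrays. The highest value among 23 control probe sets with no target RNA in the sample, 4.99, was taken as background, and 16731 probe sets (69.7%) had a mean above it in MI or in Sham. The ventricular light chain MYL2 averaged 14.62 ± 0.04 in MI and 14.63 ± 0.05 in Sham (SD, n = 8 each), while the atrial light chain MYL4 averaged 8.08 ± 0.56 in MI and 8.28 ± 0.27 in Sham. MI 7, labelled female, had a signal of 9.51 for the Y-linked gene EIF1AY, above the minimum of the labelled males (9.40) and far above the maximum of the other labelled females (3.51). The poly-A spike-in controls divided the arrays into set A (6 MI and 5 Sham arrays) and set B (MI 7, MI 8, Sham 6, Sham 7 and Sham 8), a division that the labels do not mention. Sham 8 stood apart in several of the genes described here. Values without these animals or within each set are given beside the results they bear on. Set B, with 5 arrays, was fitted without the sex term.

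Of the 9 probe sets, CCL3L1 was lower and CSF3 was higher in MI, and the other 7 did not pass the test (limma, adjusted p under 0.05 over all probe sets). Over the whole array 10.5% of probe sets passed, 5.14% lower and 5.39% higher in MI, so 2 of 9 is to be read against that background and is a count of few probe sets. The difference, MI minus Sham, was below 0 in 8 of the 9 probe sets (88.9%), against 50.1% of all probe sets, and its median was -0.31 against -0.00035 over all probe sets. Without Sham 8 it was below 0 in 7 of the 9 (77.8%), against 50.4% of all probe sets, with a median of -0.28. The 9 probe sets are not independent: 2 of them measure CXCL12, and several moved together across the animals. Some differences were also close to 0, such as -0.06 for CXCL9. At an unadjusted p under 0.05 there were 3 of 9, where all probe sets gave 23.6%. The groups did not overlap in 1 of the 9, lower in MI, against 2.96% of all probe sets (1.39% lower and 1.57% higher in MI). In bulk tissue such as this, fewer cells of a type and less RNA per cell cannot be told apart.

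**Figure D1:**
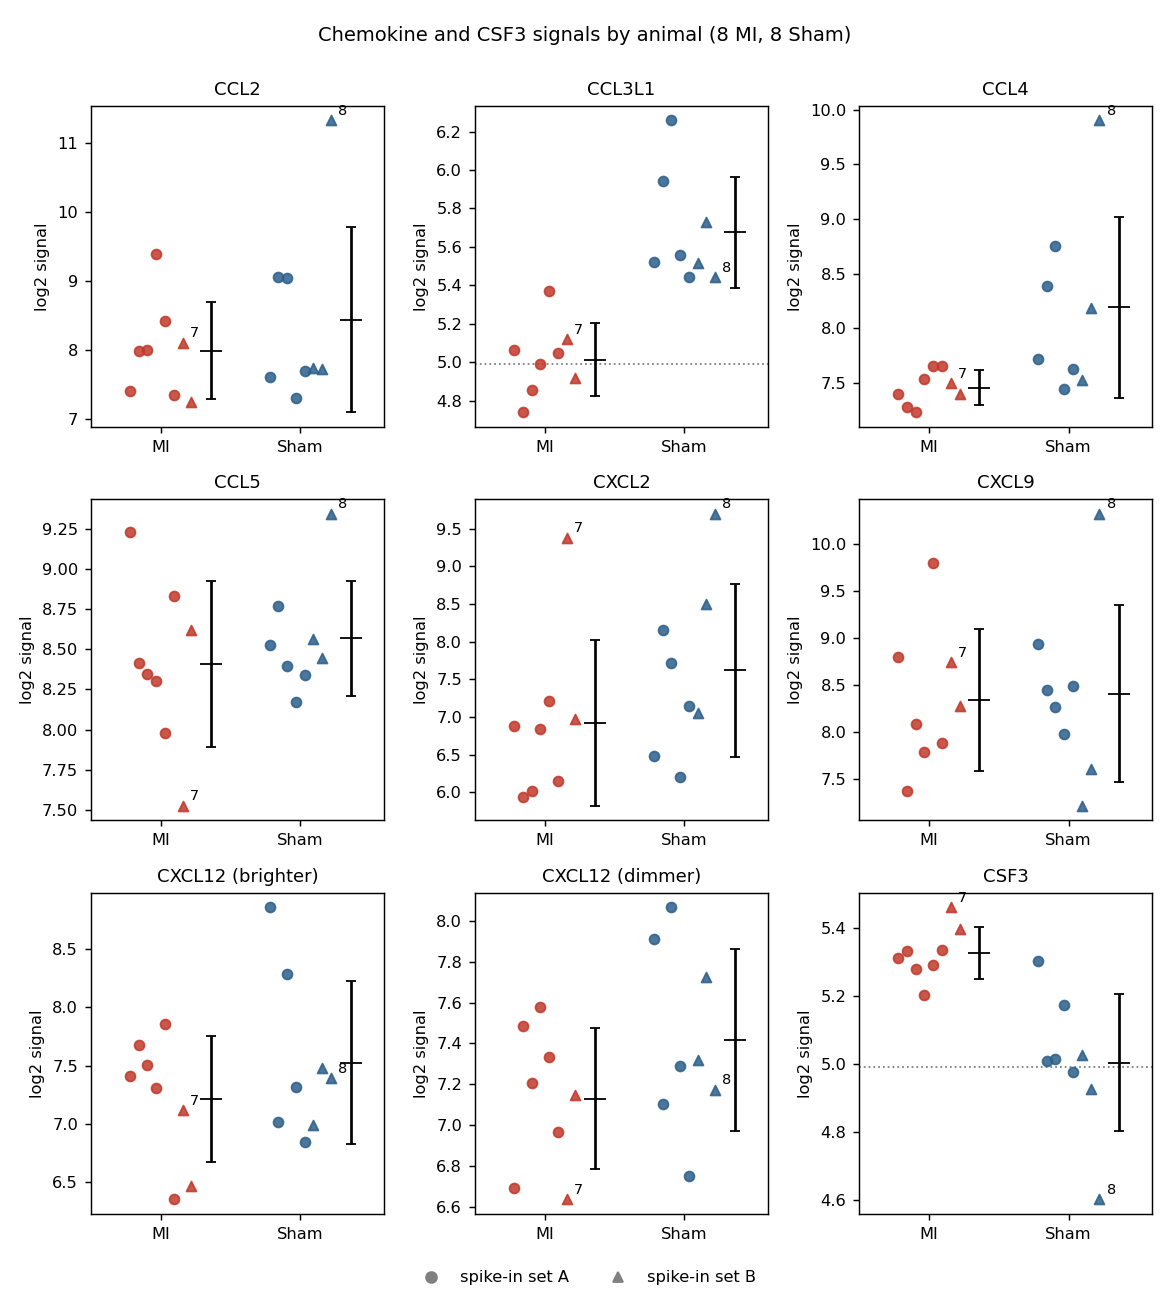
Log2 signal of each chemokine and CSF3 probe set in 8 MI animals (red, left) and 8 Sham animals (blue, right); bars show the mean ± SD, circles are arrays of spike-in set A, triangles those of set B, the dotted line is the background of 4.99, and the digits 7 and 8 mark MI 7 and Sham 8. All 8 MI animals lie below all 8 Sham animals for CCL3L1, and Sham 8 is the highest animal for CCL2, CCL4, CCL5, CXCL2 and CXCL9.

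CCL3L1 (Entrez 494459) encodes a macrophage inflammatory protein that attracts monocytes, macrophages and T cells. It lies on chromosome 12 of the pig assembly Sscrofa11.1, next to CCL4. Its signal in MI animals was 4.74 at the lowest, 5.02 at the median and 5.37 at the highest, against 5.44, 5.54 and 6.26 in Sham animals. The groups did not overlap, as in 1.39% of all probe sets in this direction: MI 5 was the highest MI animal and still lay below Sham 5 and Sham 8, the lowest Sham animals. CCL3L1 averaged 5.01 ± 0.19 in MI and 5.68 ± 0.29 in Sham (SD, n = 8 each), a difference of -0.66 (SE 0.12, 95% confidence interval -0.92 to -0.41, limma adjusted p = 0.00243) or a 1.58-fold lower signal in MI.

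The signal of CCL3L1 was dim. It exceeded the background value in 4 of 8 MI animals and in 8 of 8 Sham animals, so part of the MI signals cannot be separated from background. CCL3L1 is related to CCL3 and CCL4 in mammals, and the list of pig genes used here holds 0 genes named CCL3. The probe sequences were not aligned, so signal from a related transcript was not tested.

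Because the groups did not overlap over all 16 animals, CCL3L1 had to keep its direction within each spike-in set. The sets add only the size of the difference. In set A it ran from 4.74 to 5.37 in MI and from 5.44 to 6.26 in Sham, with a difference of -0.76 (limma adjusted p = 0.0205). In set B it ran from 4.92 to 5.12 in MI and from 5.44 to 5.73 in Sham, with a difference of -0.54 that did not pass among those 5 arrays (adjusted p = 0.366). The lack of overlap within each set follows from the lack of overlap over all animals and is not separate support. Without Sham 8 the difference was -0.69 (adjusted p = 0.00345), and without MI 7 it was also -0.69 (adjusted p = 0.00348).

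CCL4 (Entrez 396668), the neighbouring gene on chromosome 12, encodes another macrophage inflammatory protein, which also attracts monocytes and T cells. Its signal was 7.23 at the lowest, 7.45 at the median and 7.66 at the highest in MI, against 7.44, 7.95 and 9.90 in Sham. The 8 MI animals lay close together and 8 of 8 were below the Sham mean, but they overlapped with Sham 4, 5 and 6, and 4 MI animals fell below the lowest Sham animal. The means were 7.46 ± 0.16 in MI and 8.19 ± 0.83 in Sham, a difference of -0.74 (SE 0.29, 95% confidence interval -1.34 to -0.13). The interval left out 0, but the probe set did not pass over all probe sets (limma adjusted p = 0.121). Sham 8 was the highest animal, and without it the difference was -0.47 (adjusted p = 0.112).

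CCL2 (Entrez 397422, chromosome 12), the main attractant of monocytes through the receptor CCR2, varied more between animals than between groups. It was 7.25, 8.00 and 9.39 in MI (lowest, median, highest), against 7.30, 7.74 and 11.33 in Sham. The highest MI animal was MI 4, and Sham 8 stood above the other 7 Sham animals, which ran from 7.30 to 9.05. The means were 7.99 ± 0.70 in MI and 8.44 ± 1.34 in Sham, with a difference of -0.45 (SE 0.48, 95% confidence interval -1.47 to 0.57, limma adjusted p = 0.642). Without Sham 8 the difference was -0.04 (adjusted p = 0.97). The receptor CCR2 itself averaged 5.31 ± 0.41 in MI and 5.43 ± 0.18 in Sham (adjusted p = 0.693).

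CCL5 (Entrez 396613, chromosome 12 between CCL16 and HEATR9), also called RANTES, is made largely by T cells and platelets and attracts T cells, monocytes and eosinophils. It was 7.53, 8.38 and 9.23 in MI, against 8.17, 8.49 and 9.34 in Sham. MI animals spread over a wider range than Sham animals, with MI 7 the lowest of all and MI 1 next below Sham 8 at the top. The means of 8.41 ± 0.52 in MI and 8.57 ± 0.36 in Sham differed by -0.16 (SE 0.21, 95% confidence interval -0.61 to 0.28, limma adjusted p = 0.709). Arrays of set A gave a difference of 0.15 and those of set B -0.71, so the sign was not the same in the 2 sets. Without MI 7 it was -0.01 (adjusted p = 0.984).

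CXCL2 (Entrez 414904, chromosome 8) belongs to the CXC ligands that attract neutrophils through CXCR2. It was 5.94, 6.86 and 9.38 in MI, against 6.20, 7.43 and 9.70 in Sham. The 2 highest animals were Sham 8 and MI 7, with MI 7 apart from the other MI animals, which reached 7.22 at most. The means were 6.92 ± 1.10 in MI and 7.62 ± 1.15 in Sham, a difference of -0.69 (SE 0.52, 95% confidence interval -1.80 to 0.41, limma adjusted p = 0.475). It was -1.04 without MI 7 (adjusted p = 0.169) and -0.37 without Sham 8 (adjusted p = 0.717). These 2 animals moved the value in opposite directions, and it passed in neither case.

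CXCL9 (Entrez 100135681, chromosome 8) is induced by interferon gamma and attracts activated T cells through CXCR3. It was 7.38, 8.18 and 9.80 in MI, against 7.22, 8.36 and 10.32 in Sham. The groups covered nearly the same range, with MI 5 and Sham 8 at the top of their groups. The means of 8.35 ± 0.76 in MI and 8.41 ± 0.94 in Sham differed by -0.06 (SE 0.41, 95% confidence interval -0.94 to 0.81, limma adjusted p = 0.949). The sign turned without Sham 8, where the difference was 0.24 (adjusted p = 0.745), and also without MI 2, MI 4, MI 6 or Sham 1 (0.02 to 0.09). IFNG, its inducer, did not have a mean above background in either group.

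CXCL12 (Entrez 494460, chromosome 14) is made constitutively by stromal and endothelial cells and retains or attracts progenitor cells and lymphocytes through CXCR4. Its brighter probe set was 6.36, 7.36 and 7.85 in MI, against 6.84, 7.36 and 8.85 in Sham. Its dimmer probe set was 6.64, 7.18 and 7.58 in MI, against 6.75, 7.31 and 8.07 in Sham. Sham 1 and Sham 3 were the 2 highest animals on both probe sets, and the remaining animals of the groups overlapped. The differences were -0.31 (SE 0.27, 95% confidence interval -0.89 to 0.27, limma adjusted p = 0.558) and -0.29 (SE 0.17, -0.66 to 0.08, adjusted p = 0.355) for the brighter and the dimmer probe set. The receptor CXCR4 averaged 7.42 ± 0.50 in MI and 7.26 ± 0.48 in Sham (adjusted p = 0.733).

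CSF3 (Entrez 396839), the neutrophil growth factor, lies on chromosome 12 between MED24 and PSMD3. It was the only member with a difference above 0. Its signal was 5.20 at the lowest, 5.32 at the median and 5.46 at the highest in MI, against 4.60, 5.01 and 5.30 in Sham. The MI animals were packed closely, 5 of 8 lay above the highest Sham animal (Sham 1, at 5.30), and 8 of 8 lay above the Sham mean. CSF3 averaged 5.33 ± 0.08 in MI and 5.0 ± 0.20 in Sham (SD, n = 8 each), a difference of 0.32 (SE 0.08, 95% confidence interval 0.15 to 0.49, limma adjusted p = 0.0173) or 1.25-fold. The signal was close to background, which it exceeded in 8 of 8 MI animals and in 5 of 8 Sham animals.

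The size of the CSF3 difference varied with the spike-in set. In set A it ran from 5.20 to 5.34 in MI and from 4.98 to 5.30 in Sham, a difference of 0.20 that did not pass (limma adjusted p = 0.128). In set B it ran from 5.40 to 5.46 in MI and from 4.60 to 5.03 in Sham, a difference of 0.58 (adjusted p = 0.366 among those 5 arrays). With the set as a block the difference was 0.31 and passed (adjusted p = 0.0176). Without Sham 8, the lowest animal, it was 0.26 and passed (adjusted p = 0.021), and without MI 7, the highest, it was 0.31 (adjusted p = 0.0329). The actin control, whose 3′ probe set less its 5′ probe set is a sign of RNA integrity, gave a value that averaged 2.64 ± 0.29 in set A (n = 11) and 1.42 ± 0.14 in set B (n = 5). The same value of the GAPDH control went the other way, at -0.21 ± 0.07 in set A and -0.06 ± 0.12 in set B. The actin value averaged 2.39 ± 0.59 in MI and 2.12 ± 0.68 in Sham (two-sided exact permutation test, n = 8 each, p = 0.394), and its part in the result was not tested.

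**Figure D2:**
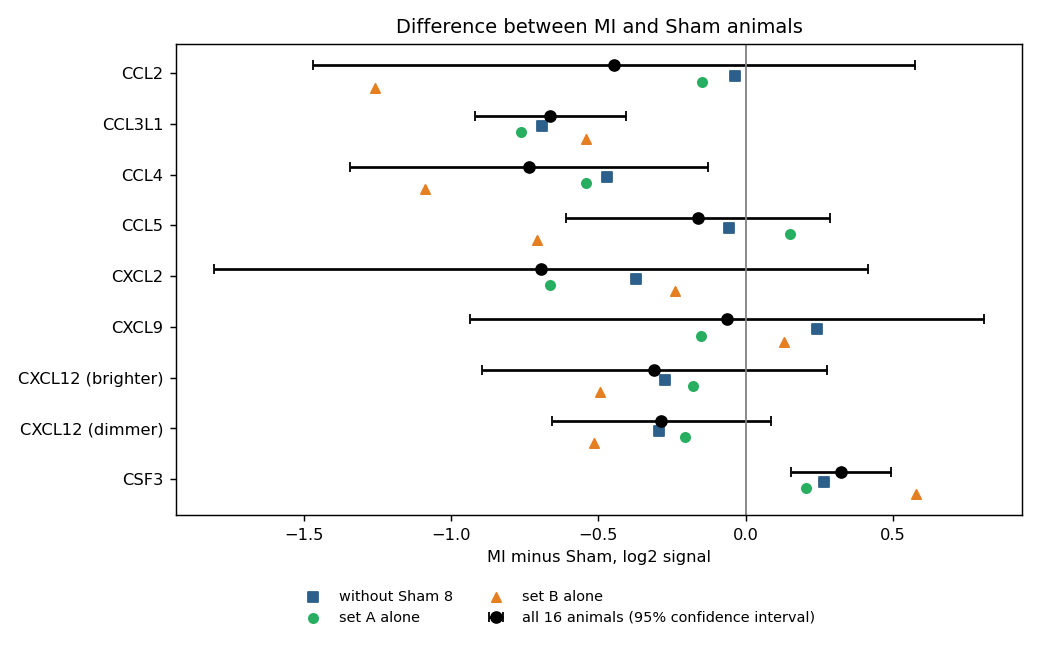
Difference MI minus Sham in log2 signal for each probe set, with 95% confidence intervals over all 16 animals (black) and the values without Sham 8 and within each spike-in set (coloured points; set B without the sex term). CCL3L1 stays between -0.76 and -0.54 in these 4 settings and CSF3 between 0.20 and 0.58, while CCL2, CCL4, CCL5, CXCL2 and CXCL9 span a wider range.

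Sham 8 was the highest of all 16 animals for CCL2, CCL4, CCL5, CXCL2 and CXCL9, that is for 5 of the 9 probe sets, and the lowest for CSF3. Over the whole array it was highest in 5.7% and lowest in 7.4% of probe sets. Against the mean of the other 7 Sham animals its signal was 9.86-fold higher for CCL2, 5.19-fold for CXCL2, 4.55-fold for CXCL9, 3.88-fold for CCL4 and 1.85-fold for CCL5. CCL3L1 did not take part: at 5.44 it ranked 7th of 16, near the low end of the Sham animals. CXCL12 ranked 8th and 10th on its brighter and dimmer probe set.

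Several regulators of chemokine transcription were also highest in Sham 8. These genes lie outside the naming rule and were chosen after their values were seen. IRF1, a transcription factor induced by interferon, was 11.22 in Sham 8, while it ran from 7.36 to 8.93 in MI and from 7.62 to 9.03 in the other Sham animals. IL6, a cytokine of the acute response, was 5.77 in Sham 8, while it ran from 4.31 to 4.86 in MI and from 3.90 to 4.75 in the other Sham animals. The other 15 animals lay below background for IL6. In all, 7 of 16 measured genes of the NF-kappa-B, STAT and IRF relay were highest in Sham 8, among them NFKBIA, NFKBIB, STAT3 and CEBPD. SOCS3, counted among the 7, lay below background there at 4.77, which leaves 6. IRF7 led narrowly, at 6.89 against 6.85 in the highest MI animal. Of 17 inducing cytokines and receptors 3 were highest there (IL6, IFNGR1 and TLR2). Over the whole array 5.7% of probe sets were highest in Sham 8 and 7.4% lowest. Other genes of these lists went the other way: NFKB1 and IL1R1 were lowest in Sham 8, and IL1B and IFNG ranked 15th of 16. NFKB1 and IFNG did not have a mean above background in either group. The mean signal of the 11 measured monocyte and macrophage markers was 8.21 in Sham 8, the highest Sham animal and 2nd of 16. It ran from 7.64 to 8.28 in MI and from 7.68 to 8.21 in Sham, Sham 8 included. The mean signal of the 7 neutrophil markers was 4.50 in Sham 8, 7th of 16 (range 4.32 to 4.67 in MI and 4.32 to 5.19 in Sham). The part of these cells, or of the spike-in set that Sham 8 belongs to, in its chemokine signals was not tested.

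**Figure D3:**
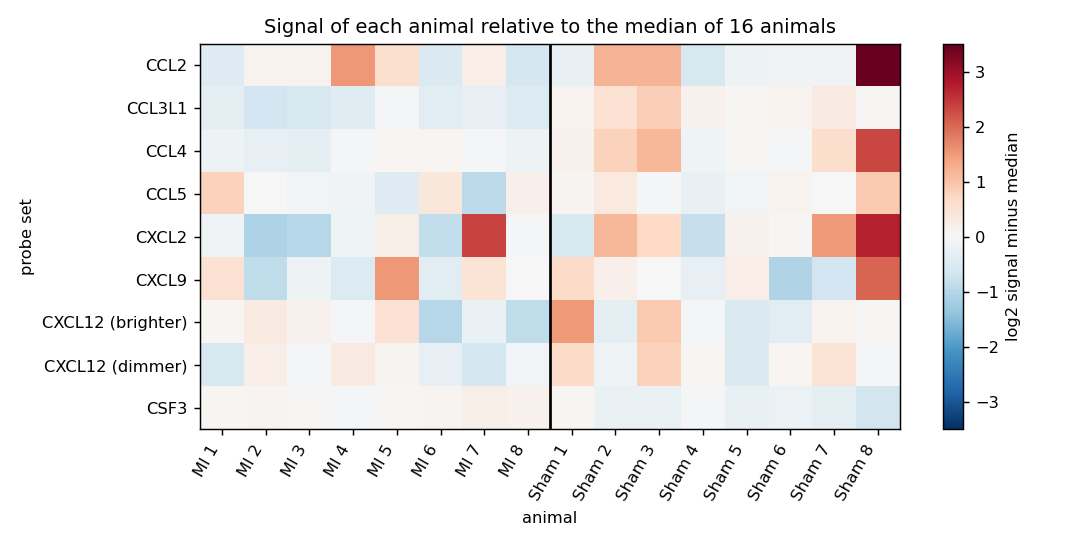
Log2 signal of each animal minus the median of the 16 animals, for each probe set (down) and animal (across, MI left and Sham right of the line). Sham 8 is the darkest column from CCL2 to CXCL9 but not for CCL3L1 or CXCL12; MI 7 stands out for CXCL2 and Sham 1 for the brighter CXCL12 probe set.

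Most of the chemokines varied widely from animal to animal. The residual SD, the spread left within the 4 cells of group and labelled sex, had a median of 0.61 over the 9 probe sets, against 0.19 over all probe sets, and 6 of the 9 lay above the 90th percentile of the array (CCL2, CXCL2, CXCL9, CCL4, the brighter CXCL12 probe set and CCL5). Without Sham 8 the median was 0.43, against 0.19 over all probe sets. CCL4 then had a residual SD of 0.37, against 0.64 with Sham 8, and lay at the 88.3rd percentile, while the dimmer CXCL12 probe set passed the 90th, so that 6 of the 9 again lay above it. Without MI 7 the median was 0.64 and 5 of the 9 lay above it, CCL5 being at the 88.3rd percentile. CCL3L1 and CSF3, the genes that passed, were among the 3 probe sets below the 90th percentile with all animals. The SD was smaller in MI than in Sham for 8 of 9 probe sets (88.9%), against 51.0% of all probe sets. Without Sham 8 this held for 6 of 9 (66.7%), against 49.7% of all probe sets.

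After the means of the 4 cells were removed, the chemokines that varied most moved partly together across the 16 animals. Pearson's r was 0.87 between CCL2 and CCL4 (0.73 over the 15 animals without Sham 8), 0.71 between CCL4 and CXCL2 (0.60) and 0.67 between CCL2 and CXCL2 (0.53). CCL3L1 and CCL4, neighbours on the chromosome, had an r of 0.30 with Sham 8 and of 0.68 without it. CSF3 ran the other way, with an r of -0.74 to CCL4 (-0.48 without Sham 8) and -0.73 to CCL2 (-0.50). The 2 CXCL12 probe sets had an r of 0.61 (0.62). These values are descriptions: the genes were measured on the same arrays and share their normalization.

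By the same measure, the genes most like CCL3L1 were TNF (r = 0.85), IL1B (r = 0.83) and AP3B1 (r = 0.82), out of all genes above background and over 16 animals. TNF and IL1B encode inflammatory cytokines, and AP3B1 a subunit of a vesicle coat adaptor. Within set A the values were 0.90, 0.83 and 0.88, and within set B 0.39, 0.87 and 0.55. The genes most like CSF3 were ATP2A2 (r = 0.84), the calcium pump of the sarcoplasmic reticulum, HMGB1 (r = 0.81), a chromatin protein, and WASHC5 (r = 0.80), a subunit of an endosomal actin-regulating complex. Without Sham 8 these 3 values were 0.75, 0.74 and 0.70. Each gene was picked as among the highest of many, a choice that favours large values, and no test of them was run. The values within sets and without Sham 8 come from the same animals, so they are not separate support. The CSF3 signal was also close to background.

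The design also asks whether the difference depends on sex. Within females by the labels, CCL3L1 was lower in MI, with a difference of -0.78 (limma adjusted p = 0.0226), where 2.85% of all probe sets passed, and 0 of the other members passed. Within males its difference was -0.55 (adjusted p = 0.0919), and 0 members passed, against 3.4% of all probe sets. CSF3 differed by 0.32 in females (adjusted p = 0.155) and by 0.32 in males (adjusted p = 0.13). The difference between the sexes itself did not pass for any member or any other probe set (limma, 0% of the array; 1363 probe sets and 0 members at an unadjusted p under 0.05). Its largest sizes were 1.05 for CXCL2, with -0.17 in females and -1.22 in males (adjusted p = 0.842), and -0.77 for the brighter CXCL12 probe set, with -0.69 in females and 0.07 in males (adjusted p = 0.801). The dimmer CXCL12 probe set gave -0.67, with -0.62 in females and 0.05 in males (adjusted p = 0.794).

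Without MI 7, the animal whose Y-linked signal went against its label, CCL3L1 differed by -0.83 in females and passed (adjusted p = 0.0394). The difference between the sexes for CXCL2 was then 0.35. For CXCL12 it was -0.75 on the brighter and -0.55 on the dimmer probe set. Between females and males over both groups 0 members passed (limma, 0 at an unadjusted p under 0.05), against 0.0583% of all probe sets.

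Other chemokine ligands showed 0 passing differences by limma. Of 21 other CC ligands 8 were measured, with 1 at an unadjusted p under 0.05 and a median difference of 0.04. CCL8, another monocyte attractant of the CCR2 group, was 5.49 ± 0.67 in MI and 6.31 ± 0.86 in Sham (difference -0.82, SE 0.36, adjusted p = 0.175), and CCL19, a ligand of CCR7, was 5.93 ± 0.41 in MI and 5.75 ± 0.26 in Sham (adjusted p = 0.462). Of 16 other CXC, CX3C and XC ligands 6 were measured, with 1 at an unadjusted p under 0.05 and a median of -0.05. CXCL13, which attracts B cells, was 4.91 ± 0.17 in MI and 5.17 ± 0.21 in Sham (adjusted p = 0.0773), and CXCL14 was 4.47 ± 0.38 in MI and 5.18 ± 0.996 in Sham (adjusted p = 0.25).

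The receptors and the colony-stimulating factors also gave 0 passing genes by limma. Of 29 chemokine receptors 9 were measured (0 at an unadjusted p under 0.05; median difference 0.09). CCR7, which guides lymphocytes and dendritic cells, differed by 0.14 (adjusted p = 0.235), and CCRL2, an atypical receptor, by -0.23 (adjusted p = 0.25). Of 14 colony-stimulating and related factors and receptors 5 were measured (1 at an unadjusted p under 0.05; median 0.13). CSF2 and IL5 did not have a mean above background in either group, and CSF3R, the receptor of CSF3, was not measured here.

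The signals that induce chemokines and their relay gave 0 passing genes by limma. Among 17 measured inducing cytokines and receptors (1 at an unadjusted p under 0.05; median 0.08), TNF averaged 5.61 ± 0.12 in MI and 5.96 ± 0.34 in Sham, a difference of -0.35 (SE 0.13, adjusted p = 0.0925). Without Sham 5 its adjusted p was 0.0469. IL1R1, the receptor of interleukin 1, differed by 0.14 (adjusted p = 0.441). Among 16 measured relay genes (2 at an unadjusted p under 0.05; median 0.01), the kinase JAK1 differed by 0.18 (adjusted p = 0.105, and 0.041 with array weights) and the feedback inhibitor SOCS3 by 0.17 (adjusted p = 0.183, not above background).

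Proteases that cleave chemokines and the syndecans that hold them at the cell surface gave 4 passing genes of 9 measured, all higher in MI, and 0 lower (5 at an unadjusted p under 0.05; median difference 0.24), where 5.39% of all probe sets were higher, 5.14% lower and 23.6% at an unadjusted p under 0.05. MMP14, a membrane-anchored protease known to cleave CXCL12 in humans, ran from 6.59 to 7.53 in MI and from 5.26 to 6.12 in Sham, a difference of 1.13 (SE 0.14, limma adjusted p = 0.00014). MMP9, the gelatinase of neutrophils and macrophages, differed by 0.54 (adjusted p = 0.000569), with all MI animals above background and a Sham mean of 4.76 below it. MMP13 passed (adjusted p = 0.000335) with signals below background in both groups, and its 1 other probe set did not pass. SDC4, a syndecan, differed by 0.25 (adjusted p = 0.0462), a call lost in 14 of the 16 fits that each left out 1 animal (adjusted p up to 0.0856). It passed without MI 4 and without MI 5.

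**Figure D4:**
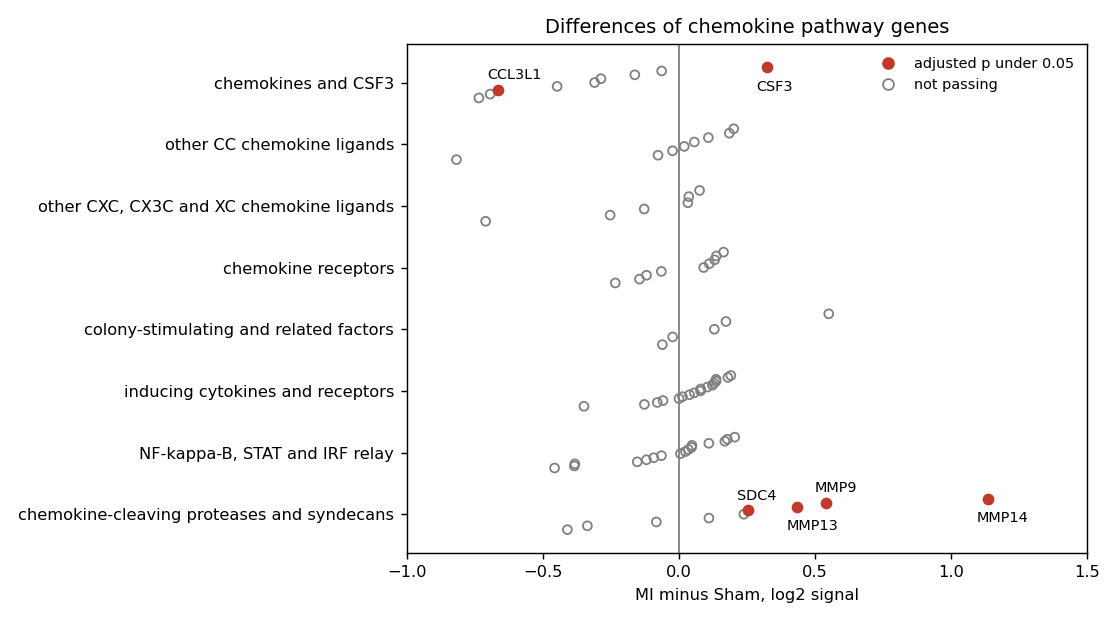
Difference MI minus Sham in log2 signal for the members (top) and the measured genes of 7 pathway lists, each point 1 gene or member probe set; filled red points had an adjusted p under 0.05. CCL3L1 and CSF3 pass among the members, MMP9, MMP13, MMP14 and SDC4 among the proteases and syndecans, and 0 genes in the other lists.

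Markers of leukocytes that make or follow chemokines differed in part, and their counts are to be read against the 10.5% of all probe sets that passed (5.39% higher, 5.14% lower in MI). Of 7 measured neutrophil markers 6 did not have a mean above background in either group, among them S100A8, S100A9 and S100A12, and MMP9 was the 1 that passed. Of 11 monocyte and macrophage markers CD14, the lipopolysaccharide co-receptor, passed with 6.74 ± 0.15 in MI and 5.97 ± 0.40 in Sham (difference 0.76, adjusted p = 0.00314). Of 13 T and NK cell markers 4 were higher (CD3D, CD247, CD8B and IL7R) and 1 lower (CD4), and of 2 mast cell markers 1, MS4A2, was higher. These calls are those of the brightest probe set of each gene. CD14, CD4 and MS4A2 each had 1 other probe set and CD247 had 3, and 0 of these others passed. The mean signal of the monocyte and macrophage list ran from 7.64 to 8.28 in MI and from 7.68 to 8.21 in Sham, and that of the T and NK list from 5.36 to 6.14 in MI and from 5.45 to 6.17 in Sham, so the groups overlapped in both. The part of these cells in the CCL3L1 and CSF3 differences was not tested.

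Some of these marker calls depended on single animals. The call of CD247 ended when MI 4, MI 6 or Sham 3 was left out (limma adjusted p at most 0.0513). IL7R, not above background, lost its call in 9 of 16 such fits (MI 1, 2, 3, 4 and 7, Sham 3, 4, 5 and 8; up to 0.0689), and MS4A2 in 11 (all but MI 4, MI 8, Sham 1, Sham 2 and Sham 5; up to 0.0856). CD4, not above background, passed in 3 of them (without MI 8, Sham 1 or Sham 3) and reached 0.094 in the others. CD3D and the brightest CD14 probe set passed in all 16. S100A8, not above background, passed in 1 of these fits, without MI 7 (adjusted p = 0.0377).

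Among markers of other cells, 2 of 4 erythroid genes (HBM and AHSP) and 2 of 5 adipocyte genes (PPARG and ADIPOQ) were higher in MI. These lists are short, and over all probe sets 5.39% were higher and 5.14% lower in MI. By limma 0 passed of 10 endothelial genes (1 at an unadjusted p under 0.05), 8 fibroblast genes (0), 5 smooth muscle genes (0), 10 cardiomyocyte genes (0), 4 atrial genes (0) and 1 B cell gene (1). Leaving out 1 animal brought some calls. The endothelial gene KDR passed without Sham 2 (adjusted p = 0.0307) and the fibroblast gene POSTN without Sham 5 (0.0461). The B cell gene CD79B, not above background, passed without MI 8 or Sham 1 (down to 0.0289). The other KDR probe set passed with all animals, higher in MI. AHSP did not pass in 11 of the 16 fits that left out 1 animal (all but MI 3, MI 6, MI 8, Sham 1 and Sham 8; up to 0.0727), nor ADIPOQ, which was not above background, in 10 (all but MI 2, MI 6, MI 8, Sham 2, Sham 3 and Sham 4; up to 0.0695).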

How the data were processed

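The deposited values are log2 signals of 16 arrays, as judged from their range and equal medians; how the authors summarised and normalized them is not given in the sources used here. They were used as deposited, with no further scaling. Tests left out 124 control probe sets. Symbols came from the platform annotation (10069 probe sets with 1 symbol, 198 with several, 13732 with none), and chromosomes and neighbours from RefSeq for Sscrofa11.1 by Entrez identifier. Sequences were not used.

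All probe sets were fitted in R 4.3.3 with limma 3.58.1, with 1 mean per combination of group and labelled sex (4 cells, 12 residual degrees of freedom). MI minus Sham was the mean of the differences in females and males. P-values were two-sided and adjusted by Benjamini-Hochberg over 23999 probe sets, with a threshold of 0.05. The fit was tested on simulated data. Precision is limited by the number of arrays.

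Members, lists and tests were chosen with earlier results of these data known. Named were all members, list genes that passed or otherwise the 2 with the lowest p (in cell lists, a selection of these), and the 3 genes most like each passing member. A gene with several probe sets was represented by the brightest.

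Alternatives were: no sex term; animal number or spike-in set as a block; each set alone (set B without sex); leaving out each animal; quantile normalization; median centring; dim probe sets removed (background or the 16000 brightest); an offset of 32; an intensity trend; array weights; an adjusted p under 0.01; a 1.5-fold minimum; and the mean over a gene's probe sets. The residual SD without Sham 8 or MI 7 was added after seeing the data. Spike-in sets were split at the widest gap in poly-A minus hybridisation control signal.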

Additional observations from a re-analysis of the deposited data

Results flagged for a closer look

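Among the 18 groups of 8 animals (9 probe sets in MI and in Sham), 2 held an animal far from the others by Dixon's ratio, the gap to the nearest animal over the group's range; a ratio above the 95% critical value for 8 values was taken as far. Chance gives about 1 in 20 groups. CXCL2 in MI had a ratio of 0.628, with MI 7 at 9.38 and the nearest MI animal at 7.22. CCL2 in Sham had a ratio of 0.565, with Sham 8 at 11.33 and the nearest Sham animal at 9.05.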

How the results depend on the processing

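The number of members passing was 2 in the reported fit, 1 in set A alone, 0 in set B alone (fitted without sex), 1 at an adjusted p under 0.01, 1 with a 1.5-fold minimum, and 2 to 2 when each animal was left out. CCL3L1 passed in all 31 alternatives but set B alone (adjusted p from 0.0012 to 0.366); CSF3 lost its call in those 4 settings and passed in the other 27 (0.00916 to 0.366). Neither changed sign. An offset of 32 gave smaller differences, -0.37 for CCL3L1 and 0.17 for CSF3, and both passed. CXCL9 changed sign in 6 and CCL5 in 2 of the 31, and the other members in none; the cause was not tested. None of the 7 other probe sets passed in any alternative. Over all probe sets 2527 passed, and 2045 to 2537 when each animal was left out. The number was 1 in set B alone, 993 with probe sets above background only, 654 of the 16000 brightest, 1123 at an adjusted p under 0.01 and 207 with the 1.5-fold minimum. In females 685 passed, 200 above background and 396 without MI 7; in males 816 and 265 above background. With the animal number as a replicate block 2645 probe sets and 2 members passed (CCL3L1 adjusted p = 0.0178, CSF3 0.0432). Residuals of same-numbered animals correlated at -0.07 to 0.46, 4 of 8 above 0.1, and 2 of 8 MI animals correlated best with their own number. Animals 7 and 8 of both groups were in set B, so number and set are mixed. These values cannot decide whether the numbers pair the animals, and the reported fit did not pair them. Of the list genes, 15 passed, and 14 with the mean over a gene's probe sets. The GAPDH control's 3′ minus 5′ signal differed by -0.0005 between MI and Sham (exact permutation test, n = 8 each, p = 0.993). CCL3L1 and CSF3 were near background, which limits their folds.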
